A study of Mus musculus with 9 samples.

Results

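The genes described here encode the core of the BCL2 family, the proteins that decide whether a neuron's mitochondria release the factors that start apoptosis. They were chosen by name: Bcl2, Bcl2l1 and Mcl1, which oppose cell death, Bax and Bak1, which carry it out, and Bad, Bid, Bbc3, Pmaip1 and Bcl2l11, which trigger it. Of the 10 genes, 9 were matched to the platform annotation by symbol, each to 1 transcript cluster, the array's unit for the transcripts of 1 locus. Bax was not matched and is not analysed here. The 9 stand among 30176 genes with a symbol of their own on the array, and no expression value was used to choose them.

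RNA was measured in motor neurons (MNs) of 9 wild-type FVB mice of 1 litter and both sexes. At postnatal day 14, 1 hind-limb muscle type per mouse was injected, in both hind legs, with WGA-HRP. WGA-HRP is a lectin joined to peroxidase that axon terminals take up and carry to the cell body. The resistant pool supplied the extensor digitorum longus (EDL, 1 µl injected), the intermediate pool the gastrocnemius (GS, 3 µl) and the vulnerable pool the tibialis anterior (TA, 3 µl). Cords were collected 48 h later, stained MNs were taken by laser capture, and each mouse gave 1 array, so that every pool had 3 mice. Mice are named here by muscle and the number in their label: EDL M11, M14 and M33, GS M13, M30 and M31, and TA M0, M1 and M3. The TA numbers are all lower than the others, and a batch that followed them cannot be told apart from the TA pool. No mouse carried a disease allele, so the names resistant, intermediate and vulnerable refer to what happens to these pools in spinal muscular atrophy (SMA), and the amount of label injected differed between the EDL and the other muscles. The labels place the sections in the cervical cord, whereas the study's text places these MNs in the lumbar cord.

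The proteins of this family act at the outer membrane of the mitochondrion. BCL2, BCL-XL (the product of Bcl2l1) and MCL1 hold in check the effectors BAX and BAK (Bak1), which otherwise form pores through which cytochrome c leaves. The BH3-only proteins BAD, BID, PUMA (Bbc3), NOXA (Pmaip1) and BIM (Bcl2l11) bind the protective members or activate the effectors when a cell is stressed, damaged or deprived of trophic support. During development many MNs die through this pathway, and several of its members are controlled largely by phosphorylation, cleavage or degradation, which an RNA array does not measure.

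The promoter sequences of 4 members are shown because Mcl1 and Bak1 had the largest EDL-TA differences in either direction, and Bcl2l11 and Bbc3 are known targets of forkhead (FOXO) transcription factors. Each is the 250 bases before a RefSeq transcription start on build GRCm38.p6, written 5′ to 3′ on the strand of the gene. They lie at chr3:95658471-95658720 (plus strand) for Mcl1, chr17:27028628-27028877 (minus strand) for Bak1, chr2:128125788-128126037 (plus strand) for Bcl2l11 and chr7:16310011-16310260 (plus strand) for Bbc3. Capitals mark the GC box in Mcl1, and the forkhead motif in Bcl2l11 and Bbc3. The Bak1 window held neither a GC box nor a CCAAT box.
Mcl1: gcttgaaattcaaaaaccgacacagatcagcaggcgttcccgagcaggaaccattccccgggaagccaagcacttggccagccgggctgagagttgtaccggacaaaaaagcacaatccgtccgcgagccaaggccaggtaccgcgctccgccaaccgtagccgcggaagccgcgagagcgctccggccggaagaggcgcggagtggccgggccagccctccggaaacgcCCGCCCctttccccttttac
Bak1: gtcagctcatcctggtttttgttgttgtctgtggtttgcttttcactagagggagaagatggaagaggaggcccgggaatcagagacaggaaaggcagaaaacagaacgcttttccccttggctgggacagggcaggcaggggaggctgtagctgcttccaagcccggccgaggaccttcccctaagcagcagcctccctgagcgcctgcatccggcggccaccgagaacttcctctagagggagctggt
Bcl2l11: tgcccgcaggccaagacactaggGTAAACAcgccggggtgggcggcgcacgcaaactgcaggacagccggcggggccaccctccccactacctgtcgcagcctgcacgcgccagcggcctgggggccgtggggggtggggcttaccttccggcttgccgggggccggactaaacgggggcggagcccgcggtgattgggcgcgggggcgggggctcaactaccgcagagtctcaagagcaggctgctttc
Bbc3: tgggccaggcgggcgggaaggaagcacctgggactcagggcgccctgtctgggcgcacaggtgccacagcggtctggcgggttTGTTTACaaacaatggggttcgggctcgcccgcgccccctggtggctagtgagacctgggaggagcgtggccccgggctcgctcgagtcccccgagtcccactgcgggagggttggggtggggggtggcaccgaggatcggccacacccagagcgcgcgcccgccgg

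RefSeq promoter windows were found for 9 of the 10 genes, Bax included and Pmaip1 not, with 15 windows in all because some genes have several starts. The forkhead motif GTAAACA, read on both strands, was present in 1 window of Bcl2l11 and 1 of Bbc3, against 3.17% of all 32851 mouse windows. In Bcl2l11 it ended 221 bases before the start, and in Bbc3 it stood on the opposite strand and ended 161 bases before the start. The GC box GGGCGG was present in 10 of the 15 windows, against 32.7% of all windows, and CCAAT in 4 of them, against 33.8%. TATAAA was present in none of the 15 windows, against 12.4% of all. These are matches of letters and were not tested as binding sites.

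Signal is given as the deposited log2 value, on which a difference of 1 is a factor of 2. Negative control probe sets on the same array served as a level for comparison, and 5222 of them were available. Their 95 percentile lay between 9.62 and 11 over the arrays, so some of them gave high signal. The 3 protective genes lay high among these controls, Bcl2 between the 75.5 and 87.6 percentile over the 9 arrays, Mcl1 between 78.4 and 90.0, and Bcl2l1 between 83.3 and 91.5. Bak1 lay between the 54.9 and 61.0 percentile, Bid between 50.7 and 60.2, Bcl2l11 between 50.4 and 59.9 and Pmaip1 between 54.5 and 70.4. Bbc3 lay above the median of the negative controls on 6 of 9 arrays and Bad on 2 of 9. None of the 9 genes passed the 95 percentile of the negative controls on any array, and the pro-apoptotic signals in particular lay around their median. The MN transcription factor genes Isl1, Isl2 and Mnx1 did not pass it either, so failing it does not show that a transcript is absent. Fewer MNs with a transcript and less of it per MN cannot be told apart in pooled cells.

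**Figure D1:**
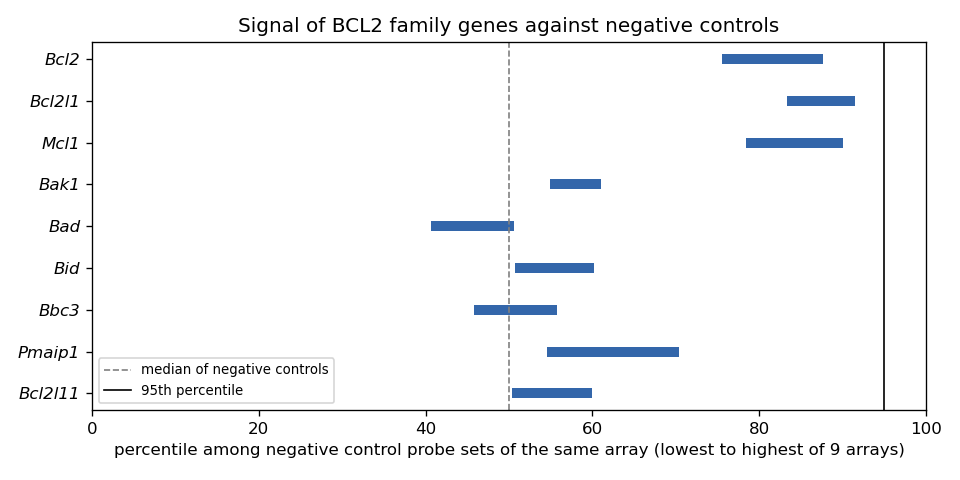
Position of each BCL2 family gene among the negative control probe sets of the same array (x axis, percentile), with bars from the lowest to the highest of the 9 arrays. The 3 protective genes lie above the 75 percentile and the BH3-only genes and Bak1 around the median, and no bar reaches the 95 percentile line.

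Repeated values are part of these data. All 9 genes had the same value, to 5 decimals, on at least 2 arrays, as had 61.6% of all clusters. Bbc3 had 1 value on 8 of the 9 arrays and Bcl2l11 on 7, and 13% of all clusters had 5 or more arrays with 1 value. The spread between mice of such a gene is a poor measure of its error, and the cause was not tested.

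No member passed the test across all clusters in any comparison of the pools. For EDL against TA, 0 of 9 members passed limma at an adjusted p under 0.05, against 5.08% of the 65956 clusters tested. For GS against TA it was 0 of 9, against 0.634% of all clusters, and for EDL against GS 0 of 9, against 0% of all clusters. At an unadjusted p under 0.05, the EDL-TA comparison picked 2 members, Mcl1 (higher in EDL) and Bak1 (lower in EDL), against 22.8% of all clusters. GS against TA picked 1 (Mcl1), where 10380 of the 65956 clusters passed. EDL against GS picked 0, where 2421 of them passed. The EDL-TA and GS-TA comparisons share the TA mice. The median EDL-TA difference was 0.02 for the 9 members, against -0.04 for all clusters and 0 for all genes with a symbol. The median size of the difference, whatever its sign, was 0.08 for the members and 0.12 for all clusters.

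**Figure D2:**
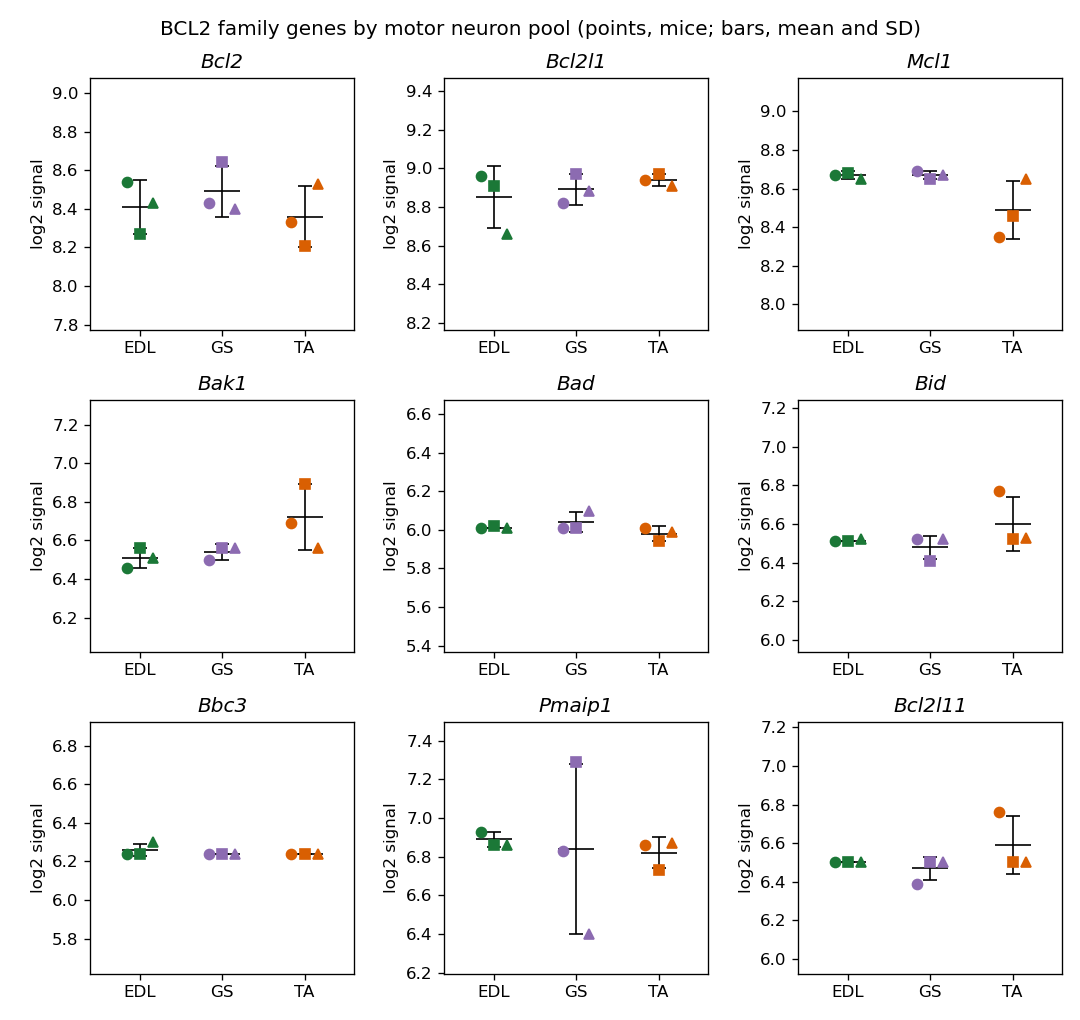
Log2 signal (y axis, the same span in each panel) of the 9 measured genes in EDL, GS and TA pools (x axis), with 1 point per mouse and the mean and SD as bars (n = 3 mice). The TA points of Mcl1 lie at 8.35, 8.46 and 8.65 and those of Bak1 at 6.69, 6.89 and 6.56, while the GS points of Pmaip1 spread from 6.40 to 7.29.

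Among the protective genes, Mcl1, whose short-lived protein guards neurons and their precursors, had the largest EDL-TA difference. The pools were not separated, as 1 mouse of each had the same value, 8.65. Mcl1 had 8.67, 8.68 and 8.65 in EDL mice M11, M14 and M33, 8.69, 8.65 and 8.67 in GS mice M13, M30 and M31, and 8.35, 8.46 and 8.65 in the TA animals M0, M1 and M3. The EDL and GS mice were thus nearly identical, and TA M3 stood with them while TA M0 and M1 were low. Means were 8.67 ± 0.02 in EDL, 8.67 ± 0.02 in GS and 8.49 ± 0.15 in TA (SD, n = 3 each). The EDL-TA difference was 0.18 (SE 0.07, 95% interval 0.01 to 0.35, adjusted p = 0.194), a ratio of 1.13, and the GS-TA difference was also 0.18 (adjusted p = 0.290).

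Bcl2, the founding protective member, had 8.54, 8.27 and 8.43 in EDL, 8.43, 8.64 and 8.4 in GS, and 8.33, 8.21 and 8.53 in TA. The pools overlapped throughout, and the EDL-TA difference was 0.06 (95% interval -0.20 to 0.31, adjusted p = 0.802). Bcl2l1, whose long protein form is the main protector of mature neurons, had 8.96, 8.91 and 8.66 in EDL, 8.82, 8.97 and 8.88 in GS, and 8.94, 8.97 and 8.91 in TA. Only EDL M33 was set apart, at the low end, and the EDL-TA difference was -0.10 (95% interval -0.29 to 0.10, adjusted p = 0.544). The 2 protein forms of Bcl2l1, which act in opposite ways, come from alternative splicing and were not separated by its 1 cluster.

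The effector Bak1 ran opposite to Mcl1. Bak1 had 6.46, 6.56 and 6.51 in EDL, 6.50, 6.56 and 6.56 in GS, and 6.69, 6.89 and 6.56 in TA. Again TA M0 and M1 stood away from the rest, this time above, while TA M3 lay within 0.0056 of the highest EDL mouse. Means were 6.51 ± 0.05 in EDL, 6.54 ± 0.04 in GS and 6.72 ± 0.17 in TA (SD, n = 3 each). The EDL-TA difference was -0.21 (SE 0.08, 95% interval -0.40 to -0.02, adjusted p = 0.182), a ratio of 0.865, and the GS-TA difference was -0.18 (adjusted p = 0.341). The median of the negative controls was also higher on TA M0 (6.42) and M1 (6.48) than on TA M3 (6.27) and the EDL and GS arrays (5.98 to 6.18). Among these controls Bak1 stayed between the 54.9 and 61.0 percentile. The part of the control level in the Bak1 difference was not tested. EDL and TA values did not overlap for Bak1 and for Bad, 2 of 9 members, against 23.8% of all clusters, and for Bad the gap was 0.00052.

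The result for Mcl1 and Bak1 turned on single TA mice. Without TA M3, both passed the test, Mcl1 at 0.26 (adjusted p = 0.0117) and Bak1 at -0.29 (adjusted p = 0.0380), while 10470 of 65956 clusters passed (15.9%). In GS against TA without TA M3, Mcl1 alone passed, 1 of 9 members, against 10.9% of all clusters. Without TA M0 and M1, the differences were 0.02 for Mcl1 and -0.06 for Bak1. Scaling also moved both: Mcl1 was at 0.26 and Bak1 at -0.13 with arrays centred on their medians, and Mcl1 at 0.28 and Bak1 at -0.08 under quantile normalization, with no call. TA M0 and M1 also stood apart on the whole array. The area under the curve separating positive from negative controls was 0.779 and 0.778 on those arrays and 0.828 to 0.854 on the other 7, TA M3 included. The mean of 10 MN marker genes was 11.48 to 11.70 in EDL, 11.42 to 11.46 in GS, 10.89 in TA M0, 10.68 in TA M1 and 11.47 in TA M3. The part of array quality and of cell content in these differences was not tested.

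The study's own filter kept transcripts that differed, unadjusted, in EDL against TA and whose intermediate pool had a mean lying between those of the outer pools. Bak1 passed it, lower in EDL, 1 of 9 members, against 20% of all clusters. Mcl1 did not pass, since its GS mean was not between the others. The 5 genes whose profile over the 9 arrays was most like that of Bak1 were Limch1, Olfr556, D930032P07Rik, Srrm2 and Gm25257, with a root mean square difference of 0.0277 to 0.0352 between centred log2 values, out of 30175 genes compared. The SD of Bak1 itself over the 9 arrays was 0.125. For Olfr556, an olfactory receptor gene with a mean signal of 4.58, TA M1 was the highest array at 4.88, as it was for Bak1.

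**Figure D3:**
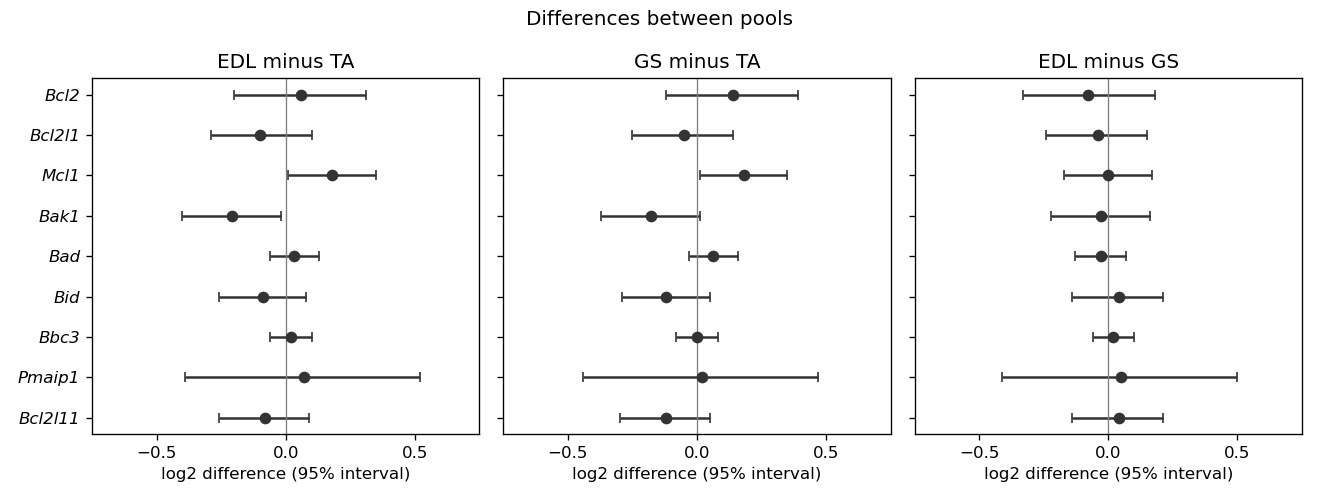
Log2 difference between pools (x axis, points) with limma's 95% interval (bars) for the 9 measured genes, in 3 comparisons of 3 mice per pool. In EDL minus TA, the intervals of Mcl1 (0.01 to 0.35) and Bak1 (-0.40 to -0.02) leave out 0, and in EDL minus GS every interval covers 0.

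Among the BH3-only genes, Pmaip1, a target of p53 and of the stress response, varied most between mice. Pmaip1 had 6.93, 6.86 and 6.86 in EDL, 6.83, 7.29 and 6.40 in GS, and 6.86, 6.73 and 6.87 in TA. Both the highest and the lowest of the 9 values were in GS, and the SD was 0.04 in EDL, 0.44 in GS and 0.08 in TA. The whole range of 0.89 was a factor of 1.85. GS M30, the highest mouse, also had the highest mean of 8 interneuron marker genes, 8.17 against 7.18 to 7.46 on the other arrays, and the part of other cells in its Pmaip1 signal was not tested. The EDL-TA difference was 0.07 with the widest interval of the members, -0.39 to 0.52 (adjusted p = 0.883).

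Bid and Bcl2l11 were each set apart by a single mouse. Bid, whose product links death receptors to mitochondria, had 6.51, 6.51 and 6.52 in EDL, 6.52, 6.41 and 6.52 in GS, and 6.77, 6.52 and 6.53 in TA. Bcl2l11, whose product BIM is raised in neurons that lose trophic support, had 6.50 in all 3 EDL mice, 6.39, 6.50 and 6.50 in GS, and 6.76, 6.50 and 6.50 in TA. For both genes TA M0 was the high mouse and the other 8 lay within a narrow band. The EDL-TA differences were -0.09 for Bid (95% interval -0.26 to 0.08, adjusted p = 0.523) and -0.08 for Bcl2l11 (95% interval -0.26 to 0.09, adjusted p = 0.549). TA M0 also had the highest mean of 8 endothelial and pericyte markers, 8.97 against 8.27 to 8.75 on the other arrays. The same held for astrocyte markers (10.63 against 10.12 to 10.46) and oligodendrocyte markers (10.71 against 10.39 to 10.64), but not for microglia or interneuron markers. The median of the negative controls was 6.42 on TA M0 and 6.48 on TA M1, against 5.98 to 6.27 on the other arrays. The part of other cell types and of the control level in the Bid and Bcl2l11 values was not tested.

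Bad and Bbc3 lay around the median of the negative controls and hardly varied. Bad, whose product is held inactive by 14-3-3 proteins in cells with trophic support, had 6.01, 6.02 and 6.01 in EDL, 6.01, 6.01 and 6.10 in GS, and 6.01, 5.94 and 5.99 in TA. Its EDL-TA difference was 0.03 (95% interval -0.06 to 0.13, adjusted p = 0.676). Bbc3, which encodes PUMA, had 6.24 on every array but EDL M33, at 6.30, and its EDL-TA difference was 0.02 (adjusted p = 0.778). Signals at this level cannot show how large a difference in RNA would have gone unseen.

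Across the 9 members, the 95% intervals of the EDL-TA difference lay between ratios of 0.757 and 1.43, those of GS-TA between 0.739 and 1.39, and those of EDL-GS between 0.753 and 1.42. These are ratios of array signal, and the precision rests on 3 mice a pool. For no member did pools next to each other in the order of means pass the test, which does not show that they are alike.

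The rest of the pathway was described through lists of genes named by role. Of 13 other BCL2 family genes measured, 1 was higher in EDL than TA at an adjusted p under 0.05 and 0 lower. Of all clusters, 5.08% passed in either direction. The list's median difference was 0.03. The 1 gene was Bnip3, a mitochondrial BH3-like protein known for hypoxia and the removal of mitochondria. Bnip3 had 10.95, 10.98 and 10.91 in EDL, 10.82, 10.79 and 10.82 in GS, and 10.56, 10.43 and 10.75 in TA, so the 3 pools did not overlap. Its EDL-TA difference was 0.37 (SE 0.08, adjusted p = 0.0434), and 0.20 without TA M0 and M1, which left TA M3 alone. Bok, a BAX-like gene, differed by 0.14 (adjusted p = 0.181) and passed without TA M3 (0.19, adjusted p = 0.0244). Bcl2a1a, a protective gene, differed by 0.51 (adjusted p = 0.106), and its signal cannot be separated with certainty from that of its near-identical copies. The cluster of the copy Bcl2a1d differed by 0.15 (adjusted p = 0.278), with EDL and TA values that overlapped.

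Partners at the outer membrane were all higher in EDL than TA in their means. They comprise the voltage-dependent anion channels, which bind several BCL2 proteins, MTCH2, the receptor for truncated BID, and subunits of the TOM import channel. Of 6 genes, 1 passed the adjusted test, against 5.08% of all clusters, and 0 were lower. At an unadjusted p under 0.05, 6 passed, against 22.8% of all clusters, and the median difference was 0.44. Without TA M3 all 6 passed the adjusted test, as did 15.9% of all clusters. Leaving out TA M0 and M1 left TA M3 as the only TA mouse, and the median difference was then 0.10. Vdac2, which holds BAK at the membrane, had 11.59, 11.70 and 11.68 in EDL, 11.64, 11.53 and 11.58 in GS, and 11.26, 11.16 and 11.38 in TA. No TA mouse reached the other pools, and the EDL-TA difference was 0.39 (SE 0.07, adjusted p = 0.0257).

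Mtch2 had 10, 10.08 and 10.11 in EDL, 9.97, 9.97 and 10.03 in GS, and 9.08, 8.94 and 9.97 in TA, with the low values again in TA M0 and M1 (difference 0.73, adjusted p = 0.127). Vdac3 differed by 0.49 (adjusted p = 0.0790) and Tomm22 by 0.57 (adjusted p = 0.112). Under quantile normalization all 6 differences stayed positive, but those of Vdac1 and Tomm20 were 0.06 and 0.07 and that of Vdac2 was 0.22 (adjusted p = 0.0953). Set against the EDL means, the list's median was -0.43 in TA M0, -0.71 in TA M1 and -0.10 in TA M3, and the EDL-TA median without TA M0 and M1 was 0.10. The 9 members, by the same measure, lay at 0 in TA M0, -0.02 in TA M1 and 0 in TA M3. The 10 MN markers lay at -0.48, -0.72 and -0.07 in these mice, close to the outer membrane partners, and their EDL-TA median was 0.45. The part of MN content in the shift of the outer membrane partners was not tested.

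**Figure D4:**
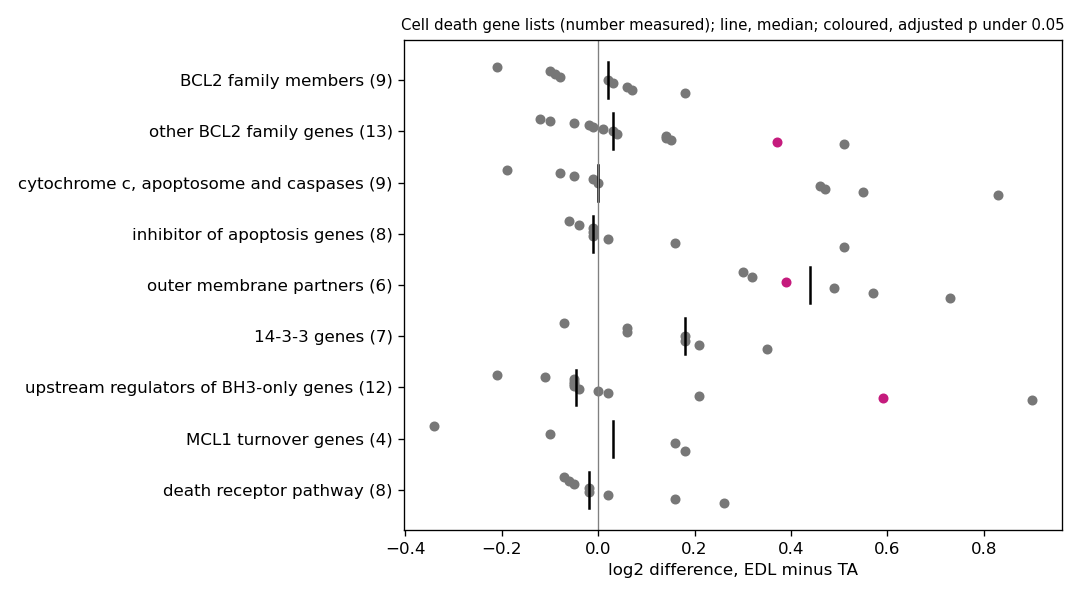
Log2 difference of EDL minus TA (x axis) for each measured gene of 9 lists (y axis, number of genes in brackets), with the list median as a black line and genes at an adjusted p under 0.05 in colour. The outer membrane partners lie wholly to the right, with a median of 0.44, and the BCL2 family members lie around 0.02.

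Downstream of the membrane, 9 genes for cytochrome c, the apoptosome and caspases were measured. In either direction 0 of 9 passed the adjusted test, against 5.08% of all clusters, and the median difference was 0. Endog, a mitochondrial nuclease, differed by 0.46 (adjusted p = 0.0646), Aifm1, the flavoprotein AIF, by 0.55 (adjusted p = 0.145) and Diablo, whose product SMAC blocks inhibitors of apoptosis, by -0.19 (adjusted p = 0.160). The brightest cluster assigned to Cycs, the gene of cytochrome c, differed by 0.83 (adjusted p = 0.111), but its identifier names chromosome 19 whereas the gene lies on chromosome 6, and Cycs has processed copies. A dimmer cluster of Cycs differed by 0.46 (adjusted p = 0.0897). Without TA M3, 3 of the 9 genes passed, against 15.9% of all clusters. Among the 3 were Cycs (adjusted p = 0.00918) and Aifm1 (adjusted p = 0.00751). Endog passed without TA M1 (adjusted p = 0.0433), with arrays centred on their medians (0.0355) and under quantile normalization (0.0248). It also passed with dim clusters left out (0.0360), where 18.4% of the clusters kept passed. It did not pass with the plain test (0.132), the compared pools alone (0.173), array weights (0.105) or without EDL M11 (0.128). Of 8 inhibitor of apoptosis genes 0 passed, against 5.08% of all clusters. Birc5 was at 0.16 (adjusted p = 0.216), Birc2 at 0.51 (adjusted p = 0.271), Birc6 at -0.06 (adjusted p = 0.442) and Xiap at -0.04 (adjusted p = 0.639). Birc2 was at 0.20 without TA M0. Of 8 death receptor genes 0 passed, against 5.08% of all clusters, with the TNF receptor gene Tnfrsf1a at 0.26 (adjusted p = 0.106). Tnfrsf1a passed without GS M31 (adjusted p = 0.0363) and under quantile normalization (0.41, adjusted p = 0.0482). It did not pass with arrays centred on their medians (0.0763), the plain test (0.168), the compared pools alone (0.0852) or array weights (0.184).

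Upstream, 1 of 12 regulators of the BH3-only genes was higher in EDL than TA and 0 lower, against 5.08% of all clusters in either direction. The list's median was -0.05. The 1 gene was Ddit3, which encodes the stress factor CHOP, known to raise Bcl2l11 and Bbc3 and to lower Bcl2. Ddit3 had 10.08, 10 and 10.06 in EDL, 9.84, 10.01 and 10.03 in GS, and 9.57, 9.37 and 9.44 in TA. All 3 TA mice, M3 included, lay below every other mouse. The EDL-TA difference was 0.59 (SE 0.07, adjusted p = 0.0131), and 0.60 without TA M0 and M1, which left TA M3 alone. A second Ddit3 cluster, whose identifier names no chromosome, differed by 1.15 (adjusted p = 0.0211). Beside this, the differences of its named targets were -0.08 for Bcl2l11, 0.02 for Bbc3 and 0.06 for Bcl2.

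Jun, the target of the JNK kinases that is induced when MN axons are injured, differed by 0.90 (adjusted p = 0.0602). Without TA M0 and M1, which left TA M3 alone, Jun differed by 0.37. Jun passed without TA M3 (1.17, adjusted p = 0.00139), with arrays centred on their medians (adjusted p = 0.0484) and under quantile normalization (0.0436). It also passed with array weights (0.0376) and with dim clusters left out (0.0296), where 18.4% of the clusters kept passed. It did not pass with the plain test (0.132), the compared pools alone (0.166), an intensity-dependent prior (0.063), or without EDL M11 (0.16) or M14 (0.175). Foxo3, a forkhead factor, had 7.56, 7.55 and 7.42 in EDL, 7.61, 7.90 and 7.55 in GS, and 7.74, 7.81 and 7.61 in TA, a difference of -0.21 (adjusted p = 0.280). Neither Bcl2l11 nor Bbc3, whose windows hold the forkhead letters, passed the test in any of the 3 comparisons.

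Genes that set the life of the proteins were tested in the same way. Of 4 genes for MCL1 turnover, 0 passed in EDL against TA, against 5.08% of all clusters. Gsk3b, whose kinase marks MCL1 for destruction, had 13.73, 13.75 and 13.73 in EDL, 13.80, 13.80 and 13.72 in GS, and 14.05, 14.26 and 13.94 in TA, so that every TA mouse lay above the rest, and the difference was -0.34 (SE 0.08, adjusted p = 0.0501). Gsk3b passed without TA M3 (adjusted p = 0.00934), with array weights (0.0282) and with dim clusters left out (0.0320), where 18.4% of the clusters kept passed. It did not pass with arrays centred on their medians (-0.26, adjusted p = 0.0887), quantile normalization (0.0545), the plain test (0.104) or the compared pools alone (0.151). Of 7 genes for 14-3-3 proteins, which retain BAD in the cytosol, 0 passed, against 5.08% of all clusters. The list's median was 0.18, with Ywhaq at 0.21 (adjusted p = 0.138) and Ywhah at 0.18 (adjusted p = 0.182). Without TA M3, 2 of the 7 passed, against 15.9% of all clusters. Without TA M0, 1 passed (Ywhaq, adjusted p = 0.0482), against 2.2% of all clusters.

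The pools were checked against cell type markers, counted where they passed the 95 percentile of the negative controls on all 9 arrays. Of 10 genes listed as MN markers, 6 did so (Chat, Slc18a3, Slc5a7, Prph, Ache and Nefh). The MN transcription factor genes Isl1, Isl2 and Mnx1, and Slc18a2, passed on no array. Slc18a2, counted in the means and medians of this list, had 6.07 to 6.21 and an EDL-TA difference of -0.01. Ache passed through a cluster whose identifier names no chromosome. Its dimmer cluster, on its own chromosome 5, had 9.26 to 9.57 and passed on no array. Of 6 astrocyte markers 2 did so (Slc1a2 and Aldoc), and of 8 oligodendrocyte markers 3 (Mbp, Mog and Mag). Of 9 microglia and 8 endothelial and pericyte markers, 0 did so on all arrays, and of 8 interneuron markers 1 (Slc6a5).

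The endothelial and pericyte markers moved with the pools, with list means of 8.27 to 8.54 in EDL, 8.52 to 8.75 in GS and 8.56 to 8.97 in TA. Of these 8 markers, 7 were lower in EDL than TA and 1 higher at an unadjusted p under 0.05, against 22.8% of all clusters. The 1 that was higher, Cldn5, had the largest difference of the list, 1.27 (adjusted p = 0.0331), and alone passed the adjusted test. Which cells gave the BCL2 family signals was not tested.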

How the data were processed

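Each of the 9 arrays (GeneChip Mouse Transcriptome Assay) held amplified RNA of the labelled MNs of 1 mouse. The deposited values are log2 signals that the authors made by background correction, normalization and summarisation (sst-RMA in the methods; RMA and Transcriptome Analysis Console in the submitters' notes, with no version; array genome build not given in the sources used here). Signals ran from 2.76 to 19.51 and were used as deposited. Of 72688 probe sets, 6732 controls were left out, and 65956 clusters were tested with limma 3.58.1 in R 4.3.3 (all arrays, 1 spread, 1.40 prior degrees of freedom, two-sided, Benjamini-Hochberg over all clusters, adjusted p under 0.05). P-values measure the spread between mice of 1 litter. The procedure was tested on simulated data with independent normal noise and with changes placed in clusters of lower spread. That simulation held neither the repeated values nor the array differences of these data.

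Symbols came from the platform annotation, updated through the RefSeq gene table. Clusters with 1 symbol numbered 30638, with several 2176 and with none 33142. A gene was represented by its brightest cluster. Named were all members, in each list up to 4 genes by the size of limma's t in EDL against TA, and the 5 genes most like Bak1; Vdac1, Tomm20, the promoters shown, the dimmer clusters and the markers were picked once the values were known. The members and lists were chosen with earlier results of these data known. The alternatives were other scaling, other estimates of the spread, a filter on dim clusters, and leaving out mice.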

Additional observations from a re-analysis of the deposited data

How the results depend on the processing

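The count of members called was 0 in each of the 3 comparisons under every alternative run but 1. Leaving out TA M3 gave 2 calls in EDL against TA (Mcl1 and Bak1, against 15.9% of all clusters) and 1 in GS against TA (Mcl1, against 10.9%), so that with single mice left out the counts ran from 0 to 2 and from 0 to 1. The number of members passing the study's filter was 1 (Bak1). It was 2 (Mcl1 and Bad) with arrays centred on their medians, 0 with the compared pools alone and 0 without TA M0 and M1, and 0 to 1 with single mice left out (0 without EDL M11 or M33, GS M30 or M31, or TA M0 or M1). Under quantile normalization it was 1, with Mcl1 in place of Bak1.

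Differences of EDL against TA changed sign for Bid (0.03) and Bcl2l11 (0.03) under quantile normalization, and for Bcl2 without TA M0 and M1 (-0.12) and among single mice left out (-0.01 to 0.14). Xiap was at 0.05 with median-centred arrays and 0.13 under quantile normalization, and Ywhaq at -0.01 under quantile normalization. None of these passed the test. The call of Bnip3 was lost without any one mouse except TA M3 (0.0719 to 0.144), and that of Vdac2 without any except GS M31 and TA M3 (0.0513 to 0.102). Both were lost under quantile normalization (0.0589 and 0.0953), with the plain test (0.0952 and 0.0665) and with the compared pools alone (0.146 and 0.104). With an intensity-dependent prior only the call of Bnip3 was lost (0.0657). Without TA M0 and M1, which left TA M3 alone, the differences were 0.20 for Bnip3 and 0.27 for Vdac2. The call of Ddit3 was lost without any one EDL mouse (0.0520 to 0.0632) and with the compared pools alone (0.0631). The causes were not tested. Over all clusters, EDL against TA had 3351 calls, 4 with the compared pools alone, 458 with the plain test and 5033 under quantile normalization. With single mice left out, the calls ran from 201 (without EDL M33) to 10470 (without TA M3). With dim clusters left out, there were 5781 calls among the 31421 clusters kept (18.4%). Bad was removed by the filter on dim clusters. The mean of all clusters of a gene was not run, as each member had 1. No paired analysis was possible because no mouse number is shared between pools. Signal near the negative controls and 3 mice a pool limit what differences can be seen.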
